A study of Drosophila simulans and Drosophila sechellia and Drosophila simulans x Drosophila sechellia with 72 samples.

Results

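In hybrid females of Drosophila sechellia and Drosophila simulans every cell carries 1 genome copy from each species. The messenger RNA of each copy was listed apart, as FPKM (fragments scaled to transcript length and library size). Each hybrid library had 1 value for the D. sechellia allele of a gene and another for the D. simulans allele. The allelic ratio is the log2 of the D. sechellia value over the D. simulans value within 1 library of hybrid adults. A gene was kept where both alleles stood at 1 FPKM or more in at least 9 of the 12 libraries, which left 3810 of the 7836 genes in the table, 1578 of them named by a CG number only. The groups are written as the medium of the previous generation and then that of the current generation, with O for food with octanoic acid and S for standard food: OO, SO, OS and SS, with 3 libraries each. Every library came from a homogenate of 10 whole hybrid adult females, reared at 20 °C in days of 16 h light and 8 h darkness. The sources used here give neither the direction of the cross, nor the parental strains, the age of the flies or the dose of octanoic acid. Hybrid larvae (12 libraries) and adults of the parental species (12 libraries each of D. sechellia and D. simulans), all in the same 4 media groups, served for comparison.

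D. sechellia lives on noni fruit, whose octanoic acid is toxic to D. simulans. Gene expression can diverge between species through changes in the DNA beside a gene, which act in cis on their own copy, or through changes in diffusible factors, which act in trans on both copies. In a hybrid both alleles meet the same diffusible factors, so the allelic ratio is the usual readout of cis divergence, and its comparison with the ratio between the parental species is the usual readout of the rest.

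The columns of the alleles differed in their sums. The D. sechellia columns summed to between 766311 and 1034080 FPKM and the D. simulans columns to between 122009 and 192420, so that 79.9% to 88.7% of each library's summed FPKM stood under D. sechellia. Between 2636 and 3256 genes were listed at 0 for the D. sechellia allele and between 2291 and 2586 for the D. simulans allele. Each column was therefore scaled to a total of 1000000 (scaled FPKM below), and all directions are relative to these totals. With the columns left as deposited, 3405 of 3504 called genes would have had the higher value under D. sechellia, and every list described below would have had a positive median. The files give no read counts, so the depth behind a value is unknown, and an allele listed at 0 is given as such. How hybrid reads were assigned to an allele is not given in the sources used here, and its part in any ratio was not tested. Names carry no coordinates, and 0 of them matched the reference gene table.

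With each column scaled to the same total, allelic differences were common and about as often in favour of either species. At an adjusted p under 0.05 (limma, library as block, Benjamini-Hochberg over the 3810 genes), 2120 genes were called, which is 55.6% of those tested. The D. sechellia allele was higher in 1035 of them (27.2%) and the D. simulans allele in 1085 (28.5%). The median ratio was 0.01 on the log2 scale, and the median size of a ratio was 0.59. Equal totals draw the ratios towards a centre near 0, so the even split depends on the scaling. With median-ratio scaling 917 genes had the D. sechellia allele higher and 1225 the D. simulans allele. A gene's ratio had a median SD of 0.68 between the 12 libraries. In 507 genes (13.3%) the 12 values of 1 allele lay wholly above those of the other, 189 with D. sechellia above and 318 with D. simulans above. The p-values measure the spread between libraries labelled as biological replicates, and the labels name no batch.

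Among the kept genes the large ratios were mostly in favour of the D. simulans allele. Among called genes past 2-fold, 372 had the D. sechellia allele higher and 675 the D. simulans allele. Past 4-fold the numbers were 85 and 287, and past 16-fold, called or not, 9 and 38. The lower tail of the distribution was accordingly longer, with a 5th percentile at -2.46 and a 95th at 1.46 (log2 ratio). The filter of 1 FPKM was applied before scaling, so on the scaled values it was stricter for the D. simulans allele. Its part in this asymmetry was not tested. The share of called genes went with the level of the gene. In 4 groups of genes from the lowest to the highest mean level, 36.8%, 46.4%, 61.8% and 77.5% were called. The median SD of the ratio between libraries was 0.94, 0.76, 0.63 and 0.43 (log2). The D. sechellia allele was higher in 106 called genes of the lowest group and the D. simulans allele in 245. In the highest group the numbers were 407 and 332.

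**Figure D1:**
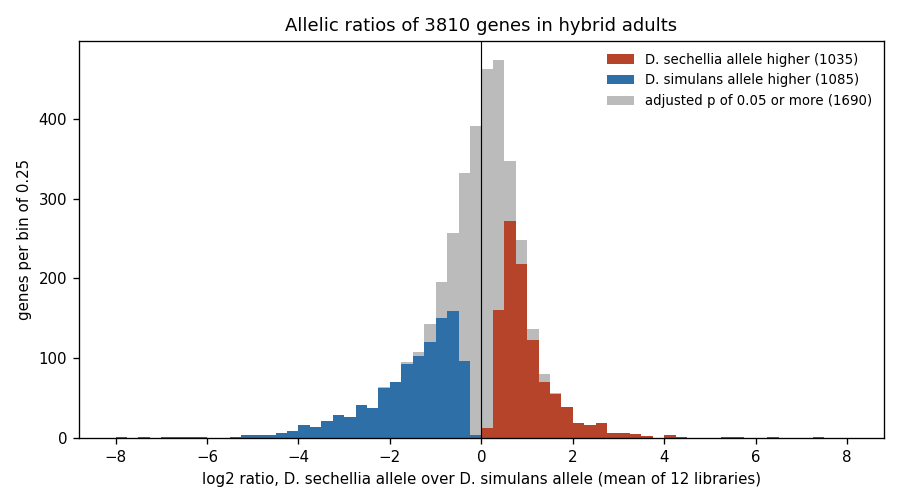
Number of genes (vertical axis) by mean log2 ratio of the D. sechellia over the D. simulans allele (horizontal axis, bins of 0.25) in 12 hybrid adult libraries. Stacked bars show 1035 genes with the D. sechellia allele higher in red, 1085 with the D. simulans allele higher in blue and the genes that were not called in grey; the blue tail reaches farther from 0.

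Sgt, a co-chaperone gene, had the largest ratio in favour of D. sechellia among the genes with a name other than a CG number. Its D. sechellia allele stood at 702 to 1378 scaled FPKM (median 1050) and its D. simulans allele at 0 to 30.8 (median 14.6). No library overlapped, and the ratio was 6.32 ± 0.33 (log2 ± SE, adjusted p = 7.36e-10, limma), a 79.8-fold difference on the scale of scaled FPKM + 1. VhaAC39-1, a subunit of the proton pump of acidic organelles, followed with 327 to 623 (median 387) against 0 to 35.3 (median 15.6), a ratio of 5.27 ± 0.44 (adjusted p = 1.33e-07). The D. simulans allele of Sgt was listed at 0 in 1 library and that of VhaAC39-1 in 2, and a fitted ratio of such a gene depends on the 1 added before the logarithm. The gene corto, whose chromatin protein acts with the Polycomb and trithorax groups, had no such zeros: its D. sechellia allele stood at 235 to 475 (median 410) and its D. simulans allele at 11.8 to 29.3 (median 21.7), with a ratio of 4.14 ± 0.09 (adjusted p = 4.9e-14). These 3 genes covered a chaperone partner, a proton pump and chromatin.

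The other genes in this direction worked in many parts of the cell. They were CDK2AP1 (4.34), Der-2, which acts in the degradation of misfolded secretory proteins (4.03), Pka-C1, the catalytic subunit of protein kinase A (3.75), RpL34b (3.68), IM2 (3.51), Sec23, a coat protein of vesicles that leave the endoplasmic reticulum (3.47), Nnf1a, a kinetochore protein (3.41), pAbp, which binds the poly(A) tail (3.34), and Bap111, a subunit of the Brahma chromatin remodeller (3.32). IM2, which codes for a peptide secreted after infection, was the most abundant of the 12, with its D. sechellia allele at 21804 to 84807 scaled FPKM (median 29640) and its D. simulans allele at 1312 to 8163 (median 3036). RpL34b and pAbp were abundant as well, at medians of 4086 and 3420 for the D. sechellia alleles against 308 and 323 for the D. simulans alleles. In 11 of these 12 genes the 12 values of the D. sechellia allele lay wholly above those of the D. simulans allele. Of all kept genes 13.3% were separated, in either direction. The 12 genes were picked for large ratios of the same direction in 12 libraries, so their separation largely follows from the choice. For Nnf1a the ranges over the libraries overlapped, with 53.5 to 199 against 0 to 58.8 scaled FPKM, though its D. sechellia allele was higher within each library.

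The 2 largest ratios in the other direction were those of muscle genes. The gene up (upheld), which codes for troponin T of the thin filament, had a D. sechellia allele at 12.3 to 80.2 scaled FPKM (median 30.9) and a D. simulans allele at 4386 to 12743 (median 7642). The ratio was -7.90 ± 0.13 (adjusted p = 2.65e-15, limma), or 239-fold in favour of D. simulans. Mp20, a muscle protein gene of the calponin type, had 16.3 to 122 (median 44.7) against 6179 to 14041 (median 9782), with a ratio of -7.76 ± 0.26 (adjusted p = 4.73e-12). Neither gene had a 0 in any column, and both alleles were listed in every library, at levels far apart.

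The other 10 genes on the D. simulans side had varied roles. They were GstE6, a glutathione transferase (-7.47), arm, the fly beta-catenin (-6.97), Hsc70-3, the chaperone of the endoplasmic reticulum (-6.72), svr, a carboxypeptidase (-6.60), Npc2a, a sterol transport protein (-6.43), the linker histone gene His1:CG33849 (-5.48), the GDP-fucose transporter gene Efr (-5.20), the mucin-related gene Mur2B (-5.14), the kinetochore gene Ndc80 (-5.06) and Drep2 (-4.82). For arm the D. sechellia allele stood at 0 to 23.1 scaled FPKM (median 9.77) and the D. simulans allele at 805 to 1516 (median 1161). Hsc70-3 had 0 to 40.0 (median 19.7) against 974 to 2332 (median 1651). In all 12 genes on this side, picked by the same rule, the values of the D. simulans allele lay wholly above those of the D. sechellia allele. The D. sechellia allele was listed at 0 in 1 to 3 libraries for GstE6, arm, Hsc70-3, Npc2a, His1:CG33849, Efr and Ndc80. GstE6 lies in a family of close copies, His1:CG33849 is 1 of many near-identical histone repeats, RpL34b has a close paralogue and IM2 belongs to a family of short peptides, so the ratios of these genes are uncertain in how reads were shared between copies. For the other genes of either side too, the part of read assignment to an allele in the ratio was not tested.

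**Figure D2:**
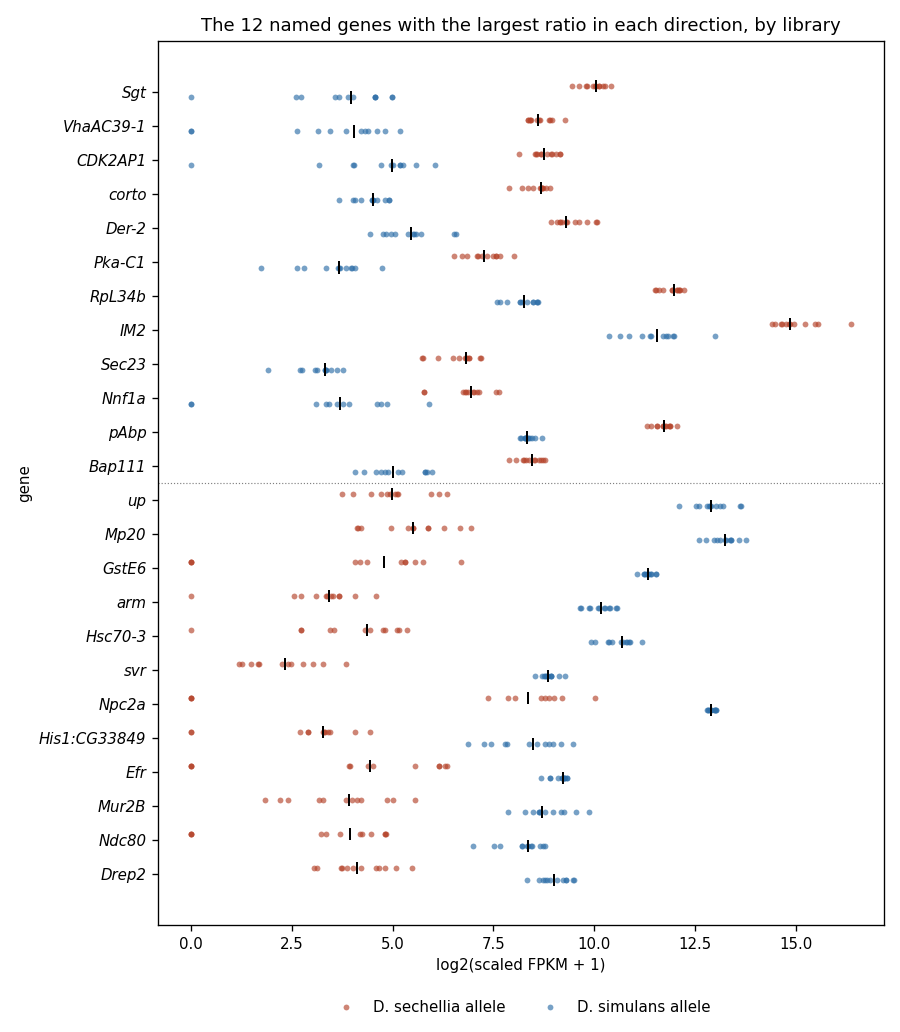
Level of each allele by library, as log2(scaled FPKM + 1) on the horizontal axis, for the 12 genes with the largest ratio in each direction; each dot is 1 of 12 hybrid adult libraries and the black bar is the median. Red dots (D. sechellia allele) lie to the right of blue dots (D. simulans allele) in the upper 12 genes, from Sgt to Bap111, with an overlap in Nnf1a. Red dots lie to the left in the lower 12, from up to Drep2. Dots at 0 stand for alleles that were not listed.

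The filter decided which extreme genes were seen. Npc2a and GstE6 both passed it in exactly 9 libraries, since the D. sechellia allele was listed at 0 in the 3 others. These zeros weigh on the mean ratios. The ratio of Npc2a had a median of -4.51 and an SD of 3.92 between libraries, and that of GstE6 a median of -6.61 and an SD of 2.45. Between adults of the species the ratio was 1.53 for Npc2a, opposite to its allelic ratio, and -2.46 for GstE6. Just outside, with 8 libraries each, stood Drs, which codes for the antifungal peptide drosomycin, and Desat2, a desaturase of cuticular hydrocarbon synthesis. The D. sechellia allele of Drs ranged from 0 to 469.9 scaled FPKM (median 175) and its D. simulans allele from 1583 to 4287 (median 2749). Desat2 had the reverse, with 525 to 920 (median 716) against 0 to 25.4 (median 9.73). In all, 219 kept genes had exactly 9 libraries past the filter and 2779 kept genes had all 12.

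The gene lists below are described by their counts, to be read against the 55.6% of all 3810 genes that were called, 27.2% with the D. sechellia allele higher and 28.5% with the D. simulans allele, and none was tested against other genes. Of 49 genes of the respiratory chain and ATP synthase, 38 were kept and 33 called (86.8%), 24 with the D. sechellia allele higher and 9 with the D. simulans allele, with a median ratio of 0.49 against 0.01 over all genes. Cyt-c-p, the cytochrome c that carries electrons to complex IV, stood at 16554 to 24434 scaled FPKM (median 20089) for the D. sechellia allele and 2887 to 4436 (median 3496) for the D. simulans allele (2.54 ± 0.04, adjusted p = 4.37e-15, limma). The complex I subunit genes ND-B14 (2.29) and ND-13A (1.79) were on the same side. ND-51, the subunit of complex I that binds NADH, was on the other, with 181 to 369 (median 251) against 1862 to 3110 (median 2224) and a ratio of -3.23. The alleles overlapped in no library for any of these 4 genes.

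Cytosolic ribosomal proteins had 39 of 52 genes kept and 33 called (84.6%), 22 with the D. sechellia allele higher and 11 with the D. simulans allele, and a median ratio of 0.31 in a range from -3.43 to 3.68. RpLP2, an acidic protein of the ribosomal stalk, had 918 to 1993 scaled FPKM (median 1352) for the D. sechellia allele and 9875 to 19329 (median 14954) for the D. simulans allele (-3.43 ± 0.07, adjusted p = 1.38e-14). RpS6, the ribosomal target of S6 kinase, had 426 to 733 (median 631) against 4277 to 5853 (median 5535), with a ratio of -3.14, and RpL7A stood at -1.91. Genes for proteins of the same particle thus stood at both ends of the distribution. Among mitochondrial ribosomal proteins 36 of 44 genes were kept, 14 with the D. sechellia allele higher and 10 with the D. simulans allele (median 0.24, in a range from -2.92 to 2.11), among them mRpL28 (0.94), mRpS29 (1.06), mRpS6 (-1.85) and mRpS28 (-2.77).

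Proteasome and COP9 genes had 16 of 29 members kept, 9 higher for D. sechellia and 2 for D. simulans (median 0.49). The core subunits Prosbeta7 (0.96), Prosalpha1 (0.75) and Prosalpha5 (0.63) were higher for D. sechellia, and the lid subunit Rpn8 had 75.05 to 216 scaled FPKM (median 97.5) against 219 to 409 (median 310), a ratio of -1.37. Translation factors and tRNA synthetases were more even, with 7 of 28 kept genes higher for D. sechellia and 10 for D. simulans (median -0.15). In that group eIF5, which triggers GTP hydrolysis at the start codon, had 19.2 to 79.0 (median 36.4) against 242 to 409 (median 298), a ratio of -3.02. eIF-5A, which helps ribosomes through difficult peptide bonds, had 6794 to 11038 (median 8723) against 4158 to 5723 (median 4684), a ratio of 0.90. The synthetase gene PheRS-m stood at -2.13 and eIF5B at -1.31.

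Of 22 kept cell division genes 9 were called (40.9%, below the share over all genes), with a median ratio of 0.27. The D. sechellia allele was higher in 8 of them and the D. simulans allele in 1. The numbers were 6 and 1 with the columns centred on the median ratio, and 6 and 2 with median-ratio scaling. The mitotic kinase gene polo had 224 to 509 scaled FPKM (median 316) against 30.2 to 109 (median 65.3), without overlap, and a ratio of 2.41 ± 0.13 (adjusted p = 1.09e-09, limma). CycE, the cyclin of S phase entry (1.30), aurB, a kinase of chromosome segregation (1.12), and dup, a replication licensing factor (0.82), were on the same side, and Bub3, named after its value was seen, was the exception at -0.68. Histone and chromatin genes went both ways, with 3 of 13 kept genes higher for D. sechellia and 5 for D. simulans. The Polycomb group genes Su(z)12 (1.51) and ph-p (-2.30) had opposite ratios, and the histone variant gene His2Av stood at 1.02.

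Egg genes had as many called ratios in either direction, and germ line genes more on the D. simulans side. All 11 egg and eggshell genes were kept, 4 with the D. sechellia allele higher and 4 with the D. simulans allele. Their median was -0.07, and 0.08 with unscaled columns centred on the median ratio. Vm26Ab, a protein of the vitelline membrane, had 15063 to 31890 scaled FPKM (median 22453) against 3451 to 7973 (median 5685), a ratio of 2.01 ± 0.04 (adjusted p = 4.99e-15, limma). Yp1, a yolk protein gene, had 1300 to 2675 (median 1836) against 3011 to 4629 (median 3822), a ratio of -1.07, and neither gene overlapped in any library. The chorion genes Cp7Fb (-0.98) and Cp36 (0.38) had overlapping levels but the same direction in 12 of 12 libraries. Of 16 kept germ line genes 3 were higher for D. sechellia and 7 for D. simulans, among them otu (-2.04) and CycB (-0.30) on the D. simulans side and ovo, a transcription factor of the female germ line (1.82), and swa, which localises messenger RNA in the egg (1.21), on the D. sechellia side.

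Muscle and eye genes had medians on the D. simulans side. Of 9 kept muscle genes 5 had the D. simulans allele higher and 3 the D. sechellia allele (median -0.66). Beside up, Mlc2, a myosin light chain, had 67.3 to 307 scaled FPKM (median 192) against 274 to 1346 (median 673), a ratio of -2.03. The flight muscle troponin TpnC4 stood at -1.40 and the Z-disc gene Zasp52 at -0.66, while the myosin heavy chain gene Mhc, named after its value was seen, was at 1.07. Of 15 kept genes of phototransduction and the eye 2 were higher for D. sechellia and 6 for D. simulans (median -0.24). The carotenoid receptor gene ninaD had 15.3 to 90.9 (median 39.2) against 91.7 to 200 (median 135), a ratio of -1.75, and Galphaq, the G protein that couples rhodopsin to phospholipase C, stood at -1.99. On the other side inaC, the eye protein kinase C, had 285 to 418 (median 331) against 212 to 386 (median 246), a ratio of 0.39. Circadian and neural genes had 2 of 8 kept genes higher for D. sechellia, among them the neuropeptide gene Pdf (1.64), and 4 higher for D. simulans, among them vri (-1.57), Gad1 (-1.18) and Vmat (-0.69).

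Detoxification enzymes had called ratios in both directions. Of 47 cytochrome P450 genes 22 were kept and 13 called (59.1%, near the share over all genes), with 5 higher for the D. sechellia allele and 8 for the D. simulans allele (median -0.12). Cyp12d1-d had 64.2 to 131 scaled FPKM (median 105) against 5.79 to 62.4 (median 16.5), a ratio of 2.54 ± 0.27 (adjusted p = 1.84e-06, limma). Cyp9c1 had 40.1 to 95.4 (median 61.5) against 9.04 to 24.1 (median 15.4), a ratio of 2.03, and Cyp6a18 stood at 1.88. Cyp4e1 was on the D. simulans side, with 40.7 to 204.6 (median 80.6) against 122 to 468 (median 165) and a ratio of -1.16. Glutathione transferases, which attach glutathione to reactive compounds, had 2 of 13 kept genes higher for D. sechellia and 6 for D. simulans, and a median of -0.81. GstE1 had 138 to 376 (median 244) against 817 to 1101 (median 871), a ratio of -1.91, GstE9 stood at -2.60 and GstT1 at -1.82. Esterases and UDP-glycosyltransferases had 3 of 15 kept genes higher for D. sechellia and 6 for D. simulans, with alpha-Est5 at 1.42, alpha-Est2 at -1.61 and alpha-Est10 at -2.20, in a cluster of similar genes. Of 11 antioxidant genes 2 were higher for D. sechellia, Prx5 (1.00) and Prx6005 (1.08), and 4 for D. simulans, among them catalase (Cat, -1.38) and the peroxiredoxin Jafrac1 (-3.78). Chaperones had 3 genes on either side among 8 kept, from Sgt at 6.32 through DnaJ-1 (0.72) to Hop (-2.14) and Hsc70-3 at -6.72.

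Genes of digestion and fat metabolism went both ways as well. Of 8 kept digestive proteases 3 were higher for D. sechellia and 4 for D. simulans (median -0.45). The trypsin gene lambdaTry had 3620 to 6020 scaled FPKM (median 4521) against 1484 to 2308 (median 1753), and its ratio of 1.35 ± 0.04 (adjusted p = 1.33e-12, limma) had an SD of 0.11 between libraries. The trypsin gene zetaTry had 888 to 1524 (median 1065) against 139 to 266 (median 179), a ratio of 2.56. The trypsin gene iotaTry was the other way, with 40.1 to 167 (median 76.7) against 463 to 989 (median 756) and a ratio of -3.16, and gammaTry stood at -0.94. Fatty acid oxidation had all 19 genes kept, 9 higher for D. sechellia and 3 for D. simulans (median 0.23), and 7 and 3 under median-ratio scaling. Among them were Etf-QO, which passes electrons to ubiquinone (0.83), CG7461 (0.83) and Acox57D-p (0.57), while the neighbouring copy Acox57D-d stood at -1.08. Fatty acid synthesis had 3 of 8 kept genes higher for D. sechellia and 2 for D. simulans. Its 2 central enzymes, acetyl-CoA carboxylase (ACC, 0.43) and fatty acid synthase (FASN1, 0.56), had the higher D. sechellia allele, and Acsl (-1.07) and spidey (-1.18) the higher D. simulans allele. Among the remaining lists, 4 amylase and glycosidase genes were kept with 2 higher for D. simulans, 6 lipase genes with 1 higher for either allele, and 7 genes of dopamine synthesis and pigmentation with 1 higher for D. simulans.

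Few antimicrobial peptide, cuticle protein and chemosensory genes passed the filter, which kept 3810 of 7836 genes overall. Of 19 antimicrobial peptide genes 5 were kept and 2 called, both with the D. sechellia allele higher. These were IM2 and, named after its value was seen, AttC (1.46). Members outside the filter went both ways (medians in scaled FPKM, D. sechellia allele first). The D. simulans allele was higher for IM4 (0 and 2396), Drs (175 and 2749), Def (32.2 and 823), Drsl5 (0 and 167) and DptA (0 and 33.8). The D. sechellia allele was higher for Dro (777 and 36.1) and Mtk (1025 and 70.9). Of 13 kept genes of pattern recognition and immune signalling 1 was higher for D. sechellia and 4 for D. simulans: key, the fly IKK gamma (-1.27), cact, the inhibitor of the Toll pathway (-0.77), PGRP-SC2 (-0.74) and spz, the Toll ligand (-0.72). PGRP-SC2, which cleaves bacterial cell wall, had 940 to 1741 scaled FPKM (median 1131) against 1542 to 2501 (median 1995). Of 88 cuticle protein genes 9 were kept, 4 higher for D. sechellia and 3 for D. simulans. Cpr51A had 94.2 to 352 (median 182) against 8.12 to 61.8 (median 26.4), a ratio of 2.77, and Cpr62Bb (1.51), Acp65Aa (1.37) and Cpr49Ab (0.93) were on the same side. Of 103 chemoreceptor and odorant binding genes 1 was kept, Ir7c, which was not called (-0.59).

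**Figure D3:**
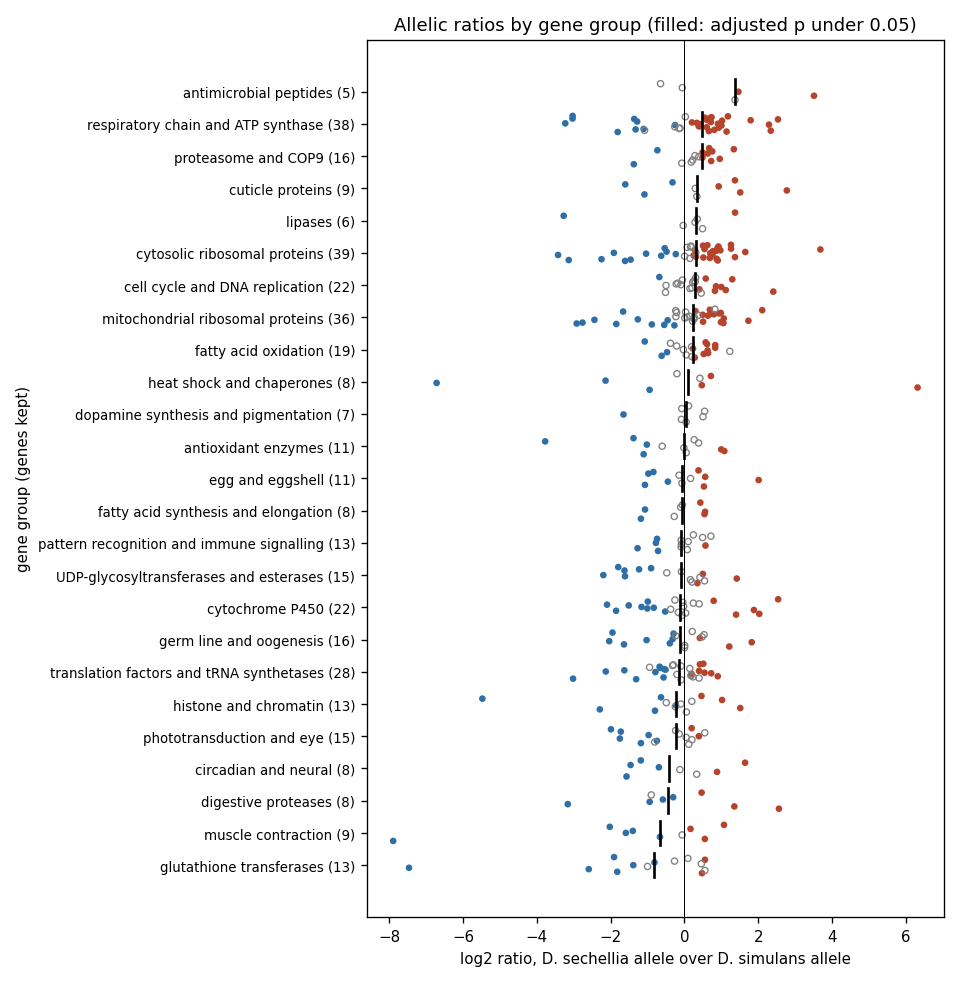
Log2 ratio of the D. sechellia over the D. simulans allele (horizontal axis) for the kept members of 25 gene groups (rows, number kept in parentheses), with black bars at group medians. Filled dots passed an adjusted p of 0.05 (red, D. sechellia allele higher; blue, D. simulans allele higher) and open dots did not; every group drawn but the antimicrobial peptides and the dopamine genes has filled dots on both sides of 0.

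Of 8 candidate genes for the use of noni, 3 were kept and 1 was called. Est-6, a secreted esterase, had 112 to 254 scaled FPKM (median 211) for the D. sechellia allele and 468 to 863 (median 657) for the D. simulans allele. The ratio was -1.80 ± 0.11 (adjusted p = 3.28e-09, limma), or 3.48-fold in favour of D. simulans, with group means of -1.65 in OO, -1.81 in SO, -2.10 in OS and -1.63 in SS. The alleles overlapped in no library, and the 12 ratios lay between -2.73 and -1.35. Catsup, a regulator of dopamine synthesis, had 52.9 to 164 (median 108) against 51.0 to 126 (median 99.3), a ratio of 0.11 ± 0.16 that was not called (adjusted p = 0.574). Cyp28d1 had 20.4 to 79.9 (median 37.5) against 32.1 to 73.4 (median 45.4), a ratio of -0.26 ± 0.18 (adjusted p = 0.219), which was called at -0.38 without OO replicate 2 (adjusted p = 0.0452). Between the species Cyp28d1 had a ratio of 2.63, and D. sechellia adults stood at a median of 53.4 scaled FPKM and D. simulans adults at 6.80. Outside the filter were Cyp4d8 (medians 4.79 and 21.6), ple, the tyrosine hydroxylase gene (12.3 and 14.6), and Osi6, Osi8 and Or22a, whose medians were 0 for both alleles.

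The media left no called change in the allelic ratio. Whether the ratio differed between flies on octanoic acid (OO and SO) and flies on standard food (OS and SS), between flies whose previous generation had been on octanoic acid (OO and OS) and on standard food (SO and SS), or by the interaction of the media, 0 of 3810 genes were called in each contrast (0%, limma on the 12 ratios). No other tool was run. At an unadjusted p under 0.05 there were 194 genes for the current medium (5.09%), 180 for the previous medium (4.72%) and 164 for the interaction (4.30%). The smallest adjusted p were 0.912, 0.791 and 0.977. The median SE of a difference was 0.39 (log2) for either medium and 0.78 for the interaction. Leaving out 1 library gave at most 3 calls, and the libraries that did so were SO replicate 1 (1 call for the current medium, CG10803, 3 for the previous medium, CG10803, CG12012 and CG17266, and 2 for the interaction, CG10803 and CG12012), SO replicate 2 (Pfdn6, current medium) and OS replicate 2 (CG11151, in all 3 contrasts).

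The genes of smallest p, none of which was called, show the spread behind these counts. Nlg1, a neuroligin gene, had log2 ratios of -2.02, -1.70 and -2.002 in OO and -4.53, -2.66 and -3.76 in OS, against -0.58, 1.18 and -0.08 in SO and -1.85, -0.73 and -0.81 in SS. For the previous medium its difference was -2.30 ± 0.48 (SE, adjusted p = 0.791). The ratios of the octanoic acid and standard groups overlapped between OO and SS, and the D. sechellia allele was listed at 0 in 2 libraries. CG32277 had 0.75, 0.47 and 0.65 in OO and 0.29, 0.24 and 0.74 in OS, against -0.50, -1.20 and -0.73 in SO and -0.23, -0.08 and 0.07 in SS, so that all 6 ratios with octanoic acid in the previous generation lay above the 6 without. Its difference of 0.97 ± 0.20 had the same adjusted p of 0.791, as had Atg10 with -1.58 ± 0.35. For the current medium the 3 genes of smallest p were CG34253 (-1.25 ± 0.29), mts, the catalytic subunit of protein phosphatase 2A (-1.03 ± 0.25), and Mtap (1.58 ± 0.40), each with an adjusted p of 0.912. The ratios of mts were -2.44, -2.35 and -1.57 in OO and -3.01, -3.11 and -2.11 in SO, against -1.38, -1.60 and -0.89 in OS and -1.40, -1.56 and -1.60 in SS. For the interaction they were CG5885 (1.77 ± 0.39), the glutathione peroxidase gene PHGPx (-4.25 ± 0.99) and the eggshell gene Femcoat (-1.60 ± 0.38), each at 0.977.

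Allelic ratios in hybrid larvae went broadly with those in hybrid adults. Both stages passed the filter for 2712 genes, and across these the adult and larval ratios had a Pearson correlation of 0.765 and a Spearman correlation of 0.706. This describes genes that share 1 annotation and 1 way of assigning reads, and genes are not replicates. Between the stages 769 genes differed (28.4%, limma), 664 higher in adults (24.5%) and 105 lower (3.87%). The median of all differences was 0.37, so the differences were centred above 0 and the counts by direction depend on this centre. With ratios centred on each library's median 599 genes differed, 342 higher and 257 lower in adults, and with median-ratio scaling 634, 364 higher and 270 lower. Relative to the medians 2084 genes (76.8%) had the same sign at both stages. Adults and larvae also differ in makeup. The summed FPKM of the 11 egg genes was 23693 to 41514 in hybrid adults and 0 to 18.9 in hybrid larvae, and that of 6 late larval genes 44.6 to 194 in adults and 5568 to 18490 in larvae. In such whole-body sums fewer cells of a type and less RNA per cell cannot be told apart, and the part of makeup in the stage differences was not tested. The sex of the larvae is not given here, and X-linked genes were not set apart from the others. The part of sex in the stage differences was not tested either.

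A few genes had ratios that were far apart or opposite between the stages. CG7763 had the largest ratio of all in adults, at 6.04 to 8.96 (log2, median 7.24), against 2.75 to 3.75 (median 3.39) in larvae, a difference of 4.09 ± 0.19 (adjusted p = 8.06e-12, limma). Its D. sechellia allele stood at a median of 1614 scaled FPKM in adults and 1984 in larvae, and its D. simulans allele at 7.68 in adults and 183 in larvae. Cyp12d1-d had ratios of 0.07 to 3.96 (median 2.70) in adults and -4.23 to -1.51 (median -3.04) in larvae, a difference of 5.58 ± 0.39 (adjusted p = 3.59e-09). For that P450 gene the higher allele thus differed between the stages, without overlap of the libraries. A close copy of it is known in Drosophila melanogaster, so its counts are uncertain. GstE3 went the other way, with -3.49 to 1.63 (median -1.62) in adults and 0.68 to 3.40 (median 2.39) in larvae and a difference of -3.73 ± 0.35 (adjusted p = 2.43e-07). CG5767 had -3.30 to 0.49 (median -0.69) in adults and 3.08 to 8.43 (median 4.96) in larvae, a difference of -6.21 ± 0.45 (adjusted p = 4.85e-09). The condensin gene Cap-D3 had the higher D. simulans allele at both stages, at -4.85 to -2.02 (median -3.21) in adults and -11.4 to -7.89 (median -8.94) in larvae. The genes with the largest adult ratios that could be compared kept their direction, with Sgt at 6.32 in adults and 6.51 in larvae, and Mp20 at -7.76 in adults and -9.56 in larvae.

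**Figure D4:**
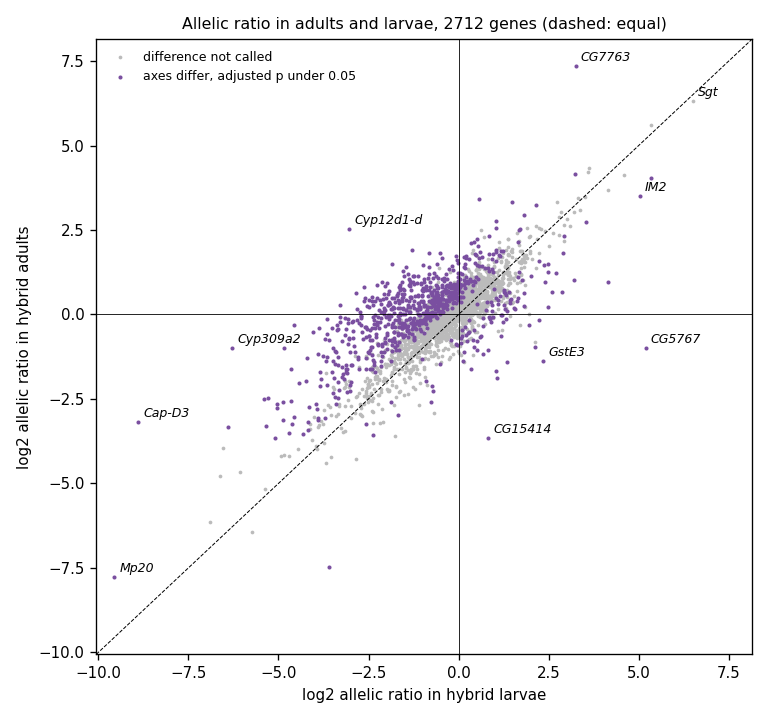
Mean log2 allelic ratio (D. sechellia over D. simulans) of 2712 genes in 12 hybrid adult libraries (vertical axis) and 12 hybrid larval libraries (horizontal axis), with a dashed line where they are equal. Purple dots mark the 769 genes whose ratio differed between the stages. Most of them lie above the line, and the median difference over the 2712 genes was 0.37. CG5767, GstE3 and Cyp12d1-d have ratios of opposite sign.

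The ratio between alleles in hybrid adults differed from the ratio between adults of the species in most genes. The ratio of 12 D. sechellia to 12 D. simulans adult libraries, scaled in the same way, was tested against the allelic ratio, and the difference (species minus allelic) was called in 2752 of 3810 genes (72.2%, limma), with the species ratio higher in 758 (19.9%) and lower in 1994 (52.3%). The median difference was -0.57, since the median species ratio was -0.63. With ratios centred on their median 2282 genes differed, 1304 higher and 978 lower, and with median-ratio scaling 2400, 1317 higher and 1083 lower. Across the 3810 genes, which share an annotation, the allelic and species ratios had a Pearson correlation of 0.247 and a Spearman correlation of 0.242. Of the 2120 genes with a called allelic ratio, 1293 (61.0%) had a species ratio of the same sign, each relative to its median.

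Most extreme allelic ratios stood beside a species ratio within 2-fold, where species ratios are taken relative to their median in the counts that follow. Of 85 called genes whose D. sechellia allele was more than 4-fold higher, 37 had a species ratio past 2-fold in the same direction, 48 one within 2-fold and 0 one past 2-fold in the opposite direction. Of 287 genes whose D. simulans allele was more than 4-fold higher, 49 had a species ratio past 2-fold in the same direction, 209 one within 2-fold and 29 one past 2-fold in the opposite direction. The gene up had an allelic ratio of -7.90 and a species ratio of -0.35, with 466 to 2016 scaled FPKM (median 1165) in D. sechellia adults and 931 to 1743 (median 1480) in D. simulans adults. The species ratios of Mp20 (-0.48), arm (-0.64) and Hsc70-3 (-0.62) likewise stood near the median species ratio of -0.63. RpL34b had an allelic ratio of 3.68 and a species ratio of -1.56, with 1007 to 1550 (median 1265) in D. sechellia and 3102 to 4106 (median 3554) in D. simulans. Sgt (-0.64), pAbp (-1.05), Sec23 (-0.70) and corto (-0.76) had species ratios within 2-fold of that median.

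Other genes differed between the species and little between the alleles. In the hybrids the D. sechellia allele of Ip259 stood at 232 to 535 scaled FPKM (median 364) and its D. simulans allele at 177 to 453 (median 309), a ratio of 0.22 that was not called (adjusted p = 0.114, limma). Adults of D. sechellia stood at 204 to 367 (median 278), and the gene was listed at 0 in all 12 libraries of D. simulans adults. CG6984 had an allelic ratio of 0.56 and was listed at 0 in the same D. simulans libraries. The D. simulans alleles of both genes were thus listed in hybrids and not in the parental species, and the values for the parents are not read as a lack of transcript.

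For some genes the difference between the ratios, taken without centring on their medians, was not called. CG7763 had an allelic ratio of 7.34 and a species ratio of 7.49, with a difference of 0.15 (species minus allelic) that was not called (adjusted p = 0.664). The allelic and species ratios were 3.51 and 4.01 for IM2 (adjusted p of the difference = 0.226), 2.56 and 2.47 for zetaTry (0.541), and 2.03 and 1.96 for Cyp9c1 (0.762). The median species ratio was lower than the median allelic ratio by the shift given above, so these differences would be larger on the centred scale. A p that misses the threshold does not show equality. His1:CG33849 (-5.48 between the alleles and -6.57 between the species), lambdaTry (1.35 and 2.04) and Cyp12d1-d (2.54 and 3.73) had the same direction with a called difference in size (adjusted p = 0.0113, 3.35e-06 and 0.000239).

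**Figure D5:**
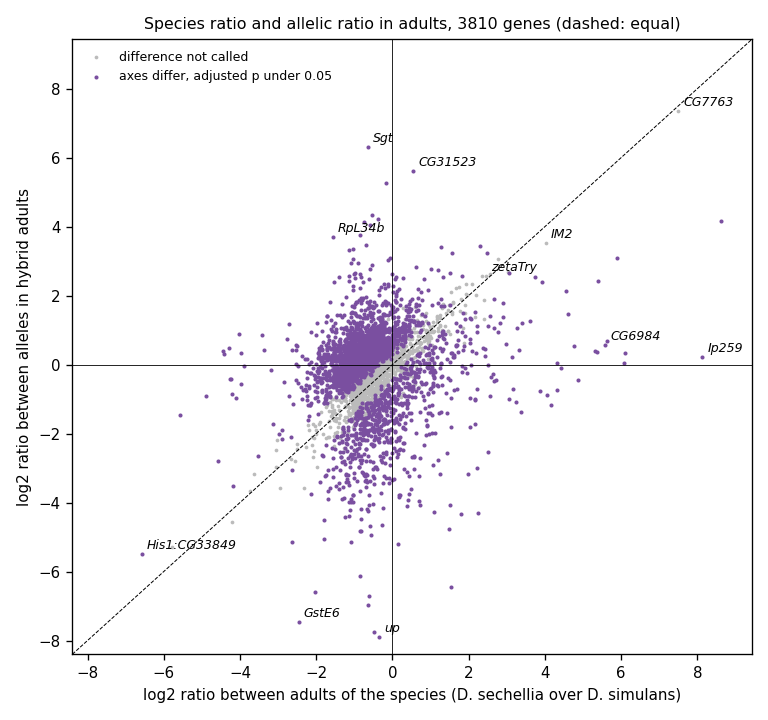
Mean log2 allelic ratio in hybrid adults (vertical axis) against the log2 ratio of D. sechellia over D. simulans adults (horizontal axis) for 3810 genes, with a dashed line where they are equal. Purple dots mark the 2752 genes whose ratios differed; CG7763, IM2 and zetaTry lie near the line, up, Sgt and RpL34b lie along the vertical direction, and Ip259 and CG6984, listed at 0 in D. simulans adults, along the horizontal one.

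The labelled sex and stage of the hybrid adults went with their markers. The 11 egg and eggshell genes were all kept, and of 31 genes whose names mark male reproductive products 22 were listed at 0 for both alleles in all 12 libraries. Of that list Acp1, an adult cuticle gene, and Acph-1, an acid phosphatase gene, are not male genes, and the summed FPKM of the 29 others was 0 to 103.9 in hybrid adults (median 33.5). Both alleles of a library come from the same animals.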

How the data were processed

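The authors deposited FPKM for 7836 genes in 96 columns, 24 of them for the alleles of the 12 hybrid adult libraries. Per the submitters' processing notes, FastQC, Bowtie2 and Cufflinks were used; the sources used here give no versions or genome builds, nor how reads were assigned to an allele. Columns without a sample numbered 0. Columns were divided by their own sum and multiplied by 1000000. Genes with both alleles at 1 FPKM or more in 9 of 12 libraries were tested on log2(scaled FPKM + 1) with limma 3.58.1 in R 4.3.3 (mean-variance trend), with the library as a block. A fold change on this scale understates that of low genes. Media and stage contrasts used 1 log2 ratio per library, and the species comparison 1 model over both kinds of column. Genes were called at a p under 0.05 after Benjamini-Hochberg adjustment over all genes of a contrast. The pipeline was tested on simulated data. Of the changes planted there, 20% of 2-fold and 67% of 4-fold ones were recovered for the current medium. For the previous medium the shares were 26% and 61%, and for the interaction 1% and 12%.

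Named genes are, per direction, the 12 called genes of largest ratio with a mean of at least 5 scaled FPKM, the same direction in 12 libraries and no CG number, up to 4 called members of smallest p from each list with 3 or more, the noni candidates, and up to 5 called genes of smallest p per direction of other contrasts. Further genes were chosen after their values were seen. The members, lists and rules were chosen with earlier results of these data known. Alternatives were other scalings, filters, pseudocounts, blocks and fits, and each library left out; centring on the median ratio was chosen after seeing the data. Tables used pandas 2.3.3 and numpy 2.4.6, and figures matplotlib 3.10.9, in Python 3.11.15.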

Additional observations from a re-analysis of the deposited data

Results flagged for a closer look

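The allelic ratio of 10 genes differed between hybrid adults and hybrid larvae by the test of the difference itself (limma, adjusted p under 0.05). They are the 5 genes of smallest p in either direction, and each moved by far more than the median shift of 0.37 between the stages. The adult minus larval log2 ratio was 4.09 for CG7763, 5.28 for the P450 gene Cyp309a2, 5.73 for the condensin gene Cap-D3, 2.71 for CG3011 and 5.58 for the P450 gene Cyp12d1-d. It was -6.21 for CG5767, -3.73 for GstE3, -2.19 for CG15117, -4.48 for CG15414 and -1.51 for the immune-induced peptide gene IM2. Cyp309a2 had a ratio of -0.99 in adults and -6.28 in larvae, where its D. sechellia allele stood at a median of 2.79 scaled FPKM and its D. simulans allele at 399. CG3011 had 0.22 in adults and -2.49 in larvae. CG15414 had -3.65 in adults and 0.82 in larvae, and CG15117 had 0.67 in adults and 2.86 in larvae. IM2 had 3.51 in adults and 5.02 in larvae, with the D. sechellia allele higher in every library of both stages. The stage difference of IM2 was not called with unscaled columns (-0.21, adjusted p = 0.231, limma).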

How the results depend on the processing

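The count of called allelic ratios (2120) was within 1.5 times of itself under most settings, between 1724 of 2779 genes with both alleles at 1 FPKM in 12 of 12 libraries and 3084 of 6670 genes without a filter, and 2038 to 2105 with 1 library left out. It was 3504 with unscaled columns (3405 with the D. sechellia allele higher, 99 lower; median 2.28), 3465 with 1 total shared by both alleles (3366 and 99; median 2.36) and 496 when the ratio had to exceed 2-fold (161 and 335). Media contrasts gave 0 calls under each setting but 3 of the 12 omissions, which gave 0 to 1 calls for the current medium, 0 to 3 for the previous medium and 0 to 2 for their interaction. The stage difference (769) was called in 1888 genes without a filter and 2449 with unscaled columns (2434 higher, 15 lower), and in 691 to 739 with 1 library left out. The species against allelic difference (2752) was called in 2722 to 2770 genes with 1 library left out, 2154 under the filter on 12 libraries, 4081 of 7527 without a filter and 3241 with unscaled columns (295 higher, 2946 lower). Replicate numbers are shared between groups but did not pair the libraries: the 18 same-number correlations ran from -0.04 to 0.04. With the replicate block 2113 allelic ratios, 785 stage differences, 2743 species differences and 0 media effects were called. Of the genes named for their allelic ratio, 45 were no longer called when tested against a 2-fold ratio, and without the library block Cp36 (adjusted p = 0.230) and CycB (0.0829) were not called. Directions of single genes depend on the scaling: 35 of these genes turned from the D. simulans to the D. sechellia side with unscaled columns, and 34 with the shared total. The log2 ratios follow, unscaled and then with the shared total. These were Acox57D-d (1.31, 1.34), Acsl (1.38, 1.39), Cat (1.07, 1.07), Cp7Fb (1.48, 1.49), CycB (2.16, 2.17), Cyp28d1 (2.06, 2.12), Cyp4e1 (1.27, 1.28), Est-6 (0.66, 0.67) and Gad1 (1.04, 1.11). Next were Galphaq (0.35, 0.25), GstE1 (0.55, 0.56), GstT1 (0.61, 0.61), Hop (0.25, 0.19), Mlc2 (0.43, 0.44), PGRP-SC2 (1.72, 1.72), PheRS-m (0.31, 0.31), RpL7A (0.55, 0.55) and Rpn8 (1.07, 1.08). Further ones were TpnC4 (1.06, 1.07), Vmat (1.72, 1.75), Yp1 (1.40, 1.40), Zasp52 (1.74, 1.77), alpha-Est2 (0.83, 0.83), cact (1.62, 1.65), eIF5B (1.06, 1.09), eys (1.33, 1.39) and gammaTry (1.51, 1.52). The last were key (1.05, 1.09), mRpS6 (0.61, 0.61), ninaD (0.67, 0.68), otu (0.41, 0.42), spidey (1.27, 1.27), spz (1.64, 1.68) and vri (0.62, 0.63). alpha-Est10 turned with unscaled columns only (0.032). Under the other settings, and for the genes named in other contrasts, 0 reversed. Depth is unknown, and the floor was 0.257 to 0.877 FPKM for the D. sechellia allele and 0.0366 to 0.0803 for D. simulans.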

Other observations

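Some genes were listed for 1 allele only and so have no ratio. In 27 genes the D. sechellia allele stood at 5 FPKM or more, before scaling, in all 12 hybrid adult libraries. The D. simulans allele of these genes was listed at 0 in all 12. In 14 of them the gene was also listed at 0 in all 12 libraries of D. simulans adults. By the same rule the D. simulans allele was listed alone in 36 genes. Of these 1, CG31948, was also listed at 0 in all D. sechellia adults. The D. simulans columns had the smaller sums, so the rule was stricter for them on the scaled values. The 27 and 36 genes are therefore not counts at an equal level. Fad2, a desaturase of female cuticular hydrocarbon synthesis, had a D. sechellia allele at 277 to 948 scaled FPKM (median 581). D. sechellia adults had 506 to 1463 (median 1082) and D. simulans adults 1.29 to 2.44 (median 1.98). RpL23A, a ribosomal protein gene, was listed for the D. simulans allele alone at 15833 to 24561 (median 20615), and D. sechellia adults had a median of 9489 and D. simulans adults one of 3820. Other genes that every cell uses were in the same set, among them COX8, RpL29, RpL30, RpL26, RpS15Aa and the ADP/ATP carrier gene sesB, each listed in adults of both species. The D. sechellia alleles of these genes at 0 are not read as silent. OSCP1 and RpS28a had D. simulans alleles at medians of 3838 and 1292. These 2 genes stood at medians of 1.14 and 2.89 in D. sechellia adults against 2166 and 11324 in D. simulans adults. Their low D. sechellia values are likewise not read as a lack of transcript.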
